A study of Rattus norvegicus with 458 samples.

Results

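The uterus and the non-glandular stomach of the rat were compared across all miRNA names of a body atlas of small RNA. The members were the libraries whose tissue label is uterus, without that of rat 8, and the libraries whose tissue label is non-glandular stomach, which makes 14 of the 215 libraries of the series, 4 of the uterus and 10 of the stomach. The atlas was made to find miRNAs that mark single organs and could serve as markers of organ injury. All rats were naive Sprague Dawley animals of 12 to 13 weeks, none carried an engineered allele or received an agent, and their tissues were put into RNAlater after CO2 asphyxiation. The uterus came from female rats 7, 9, 10 and 11, and the stomach from the 5 male rats 2 to 6 and the 5 female rats 7 to 11. Every uterine library is therefore female, so that organ and sex are partly confounded, and the stage of the oestrous cycle is not given in the labels or methods used here. The organs were also processed in different batches by tissue size, and batch and organ cannot be told apart.

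A miRNA is a short RNA that pairs with messenger RNAs, mostly through its seed (bases 2 to 8 from the 5′ end), and lowers their translation and stability. The uterus is a hollow organ of smooth muscle (myometrium) around a stromal and glandular lining (endometrium). The non-glandular stomach of rodents, or forestomach, is a smooth muscle wall lined by a keratinised squamous epithelium and has no glands. miR-143 and miR-145 are transcribed together and are abundant in smooth muscle, miR-205 and miR-203 are known from squamous epithelium, and the miR-10 and miR-196 genes lie within the HOX gene clusters, whose genes are used along the body axis.

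The sequences on which the comparison turned are shown first, with the seed in capitals. RefSeq held a mature sequence for 95 of the 103 mature miRNA names looked up, and places are given for its build GRCr8, which is not the build used for the deposited alignments. The first set belongs to the HOX clusters and carried the widest gap between the organs, that of miR-196b-5p. miR-10b-5p, at chr3:80035886-80035907 on the plus strand, lies inside Hoxd4. miR-10a-5p, at chr10:81779730-81779752 on the plus strand, starts 1338 bases from Hoxb4, and miR-196b-5p, at chr4:82661149-82661170 on the minus strand, lies 1034 bases from Hoxa10.
miR-10a-5p in RefSeq: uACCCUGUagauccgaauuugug
miR-10a-5p as most counted: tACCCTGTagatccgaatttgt
miR-10b-5p in RefSeq: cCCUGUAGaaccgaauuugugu
miR-10b-5p as most counted: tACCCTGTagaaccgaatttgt
miR-196b-5p in RefSeq: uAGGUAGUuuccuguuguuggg

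The most counted form of miR-10b-5p started upstream of the RefSeq form. It made up 77.2%, 74.7%, 39.9% and 73.1% of its counts in the uteri of rats 7, 9, 10 and 11, and 74.1% ± 1.35 (SD, n = 10) in the stomach. The low value of rat 10 came with a run that is described below, and without that rat the uterine mean was 75.0% ± 2.05 (SD, n = 3). In that form its seed was that of miR-10a-5p, whereas the seeds of the RefSeq forms differ. The second set was higher in the uterus and comes from a pair of miRNA genes inside Dnm3, with miR-199a-5p at chr13:77116255-77116277, miR-199a-3p at chr13:77116294-77116315 and miR-214-3p at chr13:77121713-77121733, all on the plus strand as written here.
miR-199a-5p: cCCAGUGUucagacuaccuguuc
miR-199a-3p: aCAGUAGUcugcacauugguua
miR-214-3p: aCAGCAGGcacagacaggcag

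The third set was higher in the stomach. miR-205 lies at chr13:107564588-107564610 on the minus strand, miR-203a-3p at chr6:137020756-137020777 on the plus strand, and miR-490-3p at chr4:66014644-66014665 on the plus strand, inside the muscarinic receptor gene Chrm2.
miR-205: uCCUUCAUuccaccggagucugu
miR-203a-3p: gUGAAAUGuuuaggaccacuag
miR-490-3p: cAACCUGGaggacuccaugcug

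The 14 libraries held 3789382 to 6110450 counts in the uterus and 4933863 to 9484960 in the stomach, and the RNA integrity numbers were 8.7 to 8.8 and 8.4 to 9.1. Values are given as CPM (the count over the library's own total, in the usual scaling), with the SD over libraries, and intervals and limits on counts cover counting error only. The profile of each of the 14 libraries correlated best with the libraries of its own label, although for the stomach of rat 6 the margin over the glandular stomach was 0.00157. The uterus of rat 8, which was left out, had an integrity number of 6.1, a median correlation of 0.878 with the other uteri and of 0.939 with jejunum, 267430 CPM of the intestinal miR-215 and no count of miR-196b-5p, for which 3 counts would have been 1.22 CPM. A second limit concerns the uterus of rat 10. In the larger of its runs, a median of 62.6% of the counts of 45 abundant miRNAs had another 5′ end than the most counted sequence, against 0.415 to 0.826% in the other 27 runs, and the comparisons of sequence variants of a miRNA below are given with and without that rat.

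**Figure D1:**
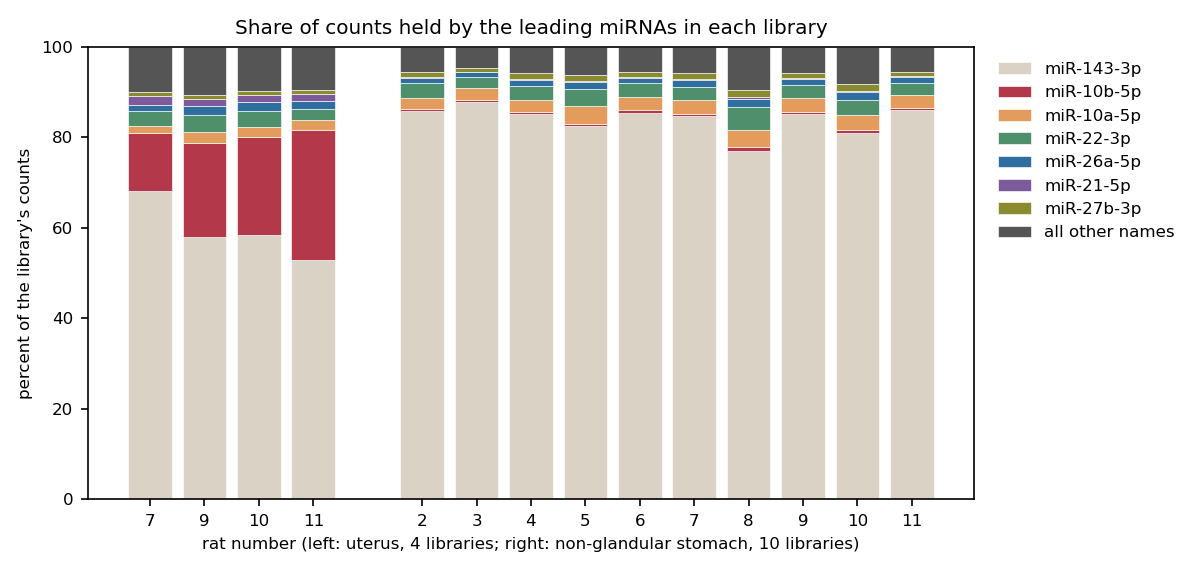
Share of the counts of each library (percent, vertical axis) on miR-143-3p, miR-10b-5p, other abundant miRNAs and all remaining names, for the 4 uterus and 10 non-glandular stomach libraries. miR-143-3p takes 52.8 to 68.2% in the uterus and 77.0 to 87.9% in the stomach, and miR-10b-5p fills 12.8 to 28.7% of the uterine libraries.

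Both organs were dominated by miR-143-3p, and the stomach more so. Its share of all counts was 68.2%, 58.1%, 58.4% and 52.8% in the uterus of rats 7, 9, 10 and 11, and 77.0%, 85.2% and 87.9% at the lowest, median and highest stomach library. The groups did not overlap. The means were 59.4% ± 6.39 (SD, n = 4) and 84.1% ± 3.14 (SD, n = 10), and the difference of -24.7 percentage points had a two-sided exact permutation p of 0.000999, the smallest that 4 against 10 libraries can give. Within the 4 rats that gave both organs the mean difference was -24.9 points with an exact sign-flip p of 0.125, which is the smallest p that 4 rats allow. miR-143-3p ranked first of 23 tissues in the non-glandular stomach and the uterus was 1 of the 3 highest. The marker of the squamous lining, miR-205, took 0.00338% ± 0.000716 (SD, n = 4) of the uterine and 0.107% ± 0.0226 (SD, n = 10) of the stomach counts (exact permutation p = 0.000999), again without overlap, and within the same 4 rats the mean difference was -0.107 points (exact sign-flip p = 0.125). The stomach ranked first of 23 tissues for miR-205 and the uterus 12th. Both markers went with the labels of the 14 libraries.

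CPM values sum to the same total in each library, and fold changes depend on the scaling. The larger share of miR-143-3p in the stomach left 15.9% of the counts for all other names there, against 40.6% in the uterus. Of these, miR-10b-5p took 0.58% in the stomach and 21.0% in the uterus. The names beside both miRNAs thus held 15.3% and 19.6%. In the main fit libraries were scaled by their upper quartile, and log2 fold changes (uterus minus stomach) below are on that scale. They were tested with edgeR's quasi-likelihood test and adjusted by Benjamini-Hochberg over all 458 names that passed the filter on low counts. Of these, 216 passed the threshold, an adjusted p of 0.05 (47.2%), with 122 higher in the uterus (26.6%) and 94 higher in the stomach (20.5%), and 164 also differed by 2-fold or more (35.8%), 91 of them higher in the uterus (19.9%) and 73 in the stomach (15.9%). Scaling by library size alone moved the median of all names by 0.59 on the log2 scale and the calls to 207 higher in the uterus and 41 higher in the stomach. With miR-143-3p left out of the library size the median moved by -0.71 and the calls to 68 and 217. The share of calls that were higher in the uterus was 56.5% in the main fit, 83.5% and 23.9% under these scalings, 70.8% with miR-10b-5p left out of the library size as well, 63.4% without the filter and 41.0% with the runs of flow cell D1GBMACXX alone. With both miR-143-3p and miR-10b-5p left out the median moved by 0.24, and 177 names were higher in the uterus and 73 in the stomach. Where a list below is given with miR-143-3p left out, miR-10b-5p stays in the library size and takes a large part of it in the uterus. With the rat as a block, 94 names were higher in the uterus and 61 in the stomach, of 399 tested.

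By raw CPM the values of 140 names did not overlap and were higher in the uterus (30.6% of 458), whereas 11 did not overlap and were higher in the stomach (2.40%). With female libraries only, 111 and 91 of 418 names were called, and between female and male stomachs edgeR called 0 of 390 names, with 34 at an unadjusted p under 0.05 and 7 called by DESeq2. The profiles of the organs nevertheless resembled each other. Over 416 names the correlation of log2 CPM was 0.948 to 0.983 between uteri and 0.974 to 0.994 between stomachs, and it was 0.876 to 0.939 between a uterus and a stomach. As these are tissue samples, fewer cells of a type and less RNA per cell cannot be told apart in any of the results.

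**Figure D2:**
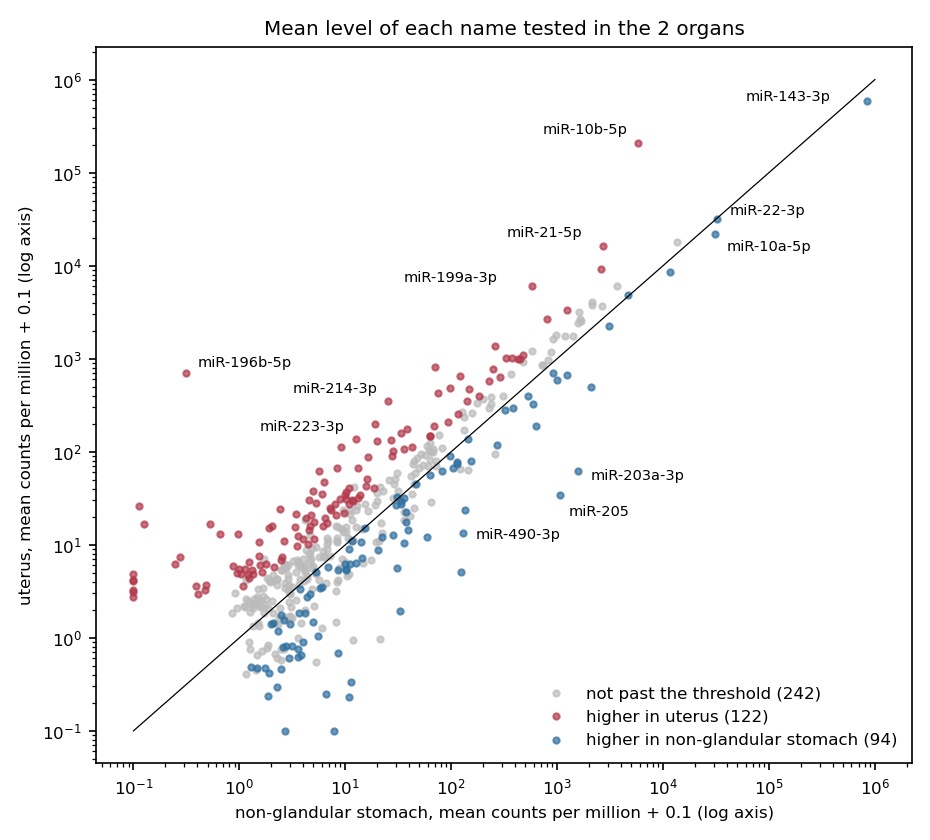
Mean CPM in the non-glandular stomach (horizontal, log scale) against mean CPM in the uterus (vertical, log scale) for the 458 names tested, with a small constant added for the log axes. The 122 names higher in the uterus and the 94 higher in the stomach are coloured. miR-143-3p, miR-22-3p and miR-10a-5p lie near the line of equal values at the top, while miR-10b-5p and miR-196b-5p lie far above it and miR-205 and miR-203a-3p far below.

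Among the miRNAs highest in both organs, most were shared. The 10 most abundant names of the uterus and of the stomach had 8 in common, which held 90.6% of uterine and 94.1% of stomach counts, and 17 of the top 20 and 41 of the top 50 were shared. The 8 include miR-10b-5p, which took 21.0% of uterine but 0.58% of stomach counts, so a shared name need not have a like level. The top 10 held miR-181a-5p and miR-199a-3p in the uterus alone, and miR-145-5p and miR-30a-5p in the stomach alone. After miR-143-3p, the shared high names included miR-22-3p, known from striated muscle and found in most tissues, at 31993, 37576, 33497 and 24486 CPM in the 4 uteri and 25279, 31039 and 50414 CPM at the lowest, median and highest stomach. The groups overlapped and the mean CPM was nearly equal, but on the upper quartile scale miR-22-3p was lower in the uterus by a log2 change of -0.63 ± 0.18 (SE, adjusted p = 0.0102). That call was lost without the uterus of rat 11 (-0.45, adjusted p = 0.0698) and with the rat as a block (-0.45, adjusted p = 0.128).

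miR-26a-5p, a widely expressed miRNA, had 14879.6, 19384, 19976 and 17459 CPM in the uteri and 9195, 13469 and 17806 in the stomachs, with a log2 change of -0.17 ± 0.18 (SE, adjusted p = 0.439). miR-191a-5p, often used as a reference miRNA, did not overlap by CPM, with 5718, 7060, 5370 and 5786 against 2444, 3606 and 4730, yet its log2 change was 0.12 ± 0.16 (SE, adjusted p = 0.583). miR-378a-3p, which lies in a gene of energy metabolism, had 4253, 3716, 2998 and 3583 CPM against 1437, 2170 and 6039, with a log2 change of -0.08 ± 0.21 (SE, adjusted p = 0.769). These 3 were not called in either direction in the main fit. Of the next 10 shared high names, let-7f-5p, let-7i-5p, miR-99b-5p, miR-125a-5p, miR-125b-5p, miR-16-5p and miR-30d-5p were not called either, with log2 changes between -0.26 and 0.35. let-7f-5p passed the test without the uterus of rat 7 (0.60, adjusted p = 0.0237). All 7 were lower in the uterus past the threshold with miR-143-3p left out of the library size, and all but let-7i-5p were higher there past the threshold with library size scaling.

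miR-27b-3p and miR-30a-5p were the shared names that were lower in the uterus beside miR-143-3p, miR-22-3p and miR-10a-5p. miR-27b-3p, whose gene lies with those of miR-23b and miR-24 inside Aopep, had 9143, 8938, 8148 and 7822 CPM in the uteri and 7969, 11336 and 16151 CPM in the stomachs, and its log2 change was -1.06 ± 0.17 (SE, adjusted p = 0.000139). The list of miR-23, miR-27 and miR-24, which are made from a pair of gene clusters, had 10 of 11 members tested called higher in the stomach and 0 in the uterus, with a median log2 change of -1.04 against -0.02 over all names. Of all names, 20.5% were called higher in the stomach and 26.6% in the uterus. With library size scaling 5 were higher in the stomach and 1 in the uterus. miR-30a-5p had 4469, 4938, 5255 and 4566 CPM against 3640, 4457 and 7789, and its log2 change of -0.52 ± 0.18 (SE, adjusted p = 0.0242) was lost without the uterus of rat 7 (adjusted p = 0.101) or 11 (adjusted p = 0.0758) and with the rat as a block (-0.43, adjusted p = 0.119).

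The smooth muscle list, made of both arms of miR-143 and miR-145, had 3 of 4 members called higher in the stomach and 0 in the uterus, with a median log2 change of -0.91. The shares over all names were 20.5% and 26.6%. miR-143-3p had a log2 change of -1.16 ± 0.24 (SE, adjusted p = 0.00100) in this fit, and its value ranged from -1.85 to -0.50 over the alternatives. miR-145-5p had 2168, 1971, 2558 and 2258 CPM in the uteri against 2549, 2804 and 4307 in the stomachs, with rat 10 just above the lowest stomach, and a log2 change of -1.06 ± 0.25 (SE, adjusted p = 0.00257). miR-145-3p, at 1337, 800.1, 1040 and 649.2 CPM against 551.8, 822.9 and 1152, had a log2 change of -0.36 ± 0.18 (SE, adjusted p = 0.112). Both organs were among the 3 highest of 23 tissues for each of these 4 arms.

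**Figure D3:**
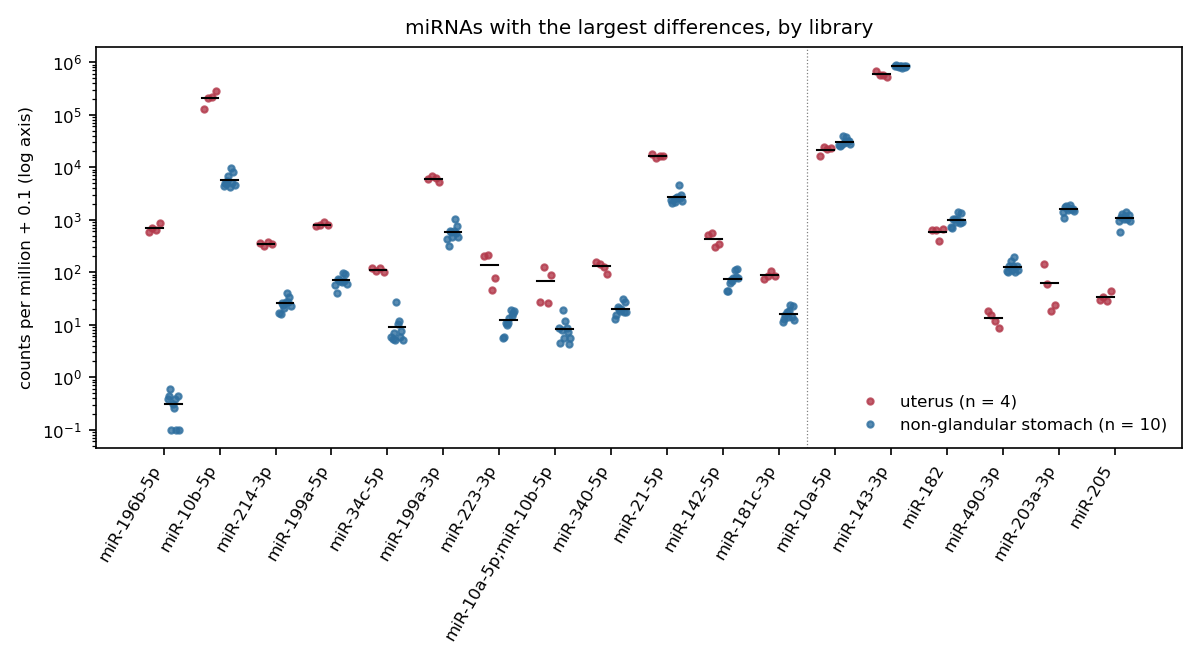
CPM of named miRNAs in each library (log scale), with 4 uterus and 10 non-glandular stomach points for each miRNA and a bar at the mean of each organ. For miR-10b-5p, miR-196b-5p, miR-199a-3p and miR-214-3p every uterus lies above every stomach, and for miR-205, miR-203a-3p and miR-490-3p every stomach lies above every uterus.

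miR-10b-5p was the second most abundant miRNA of the uterus. It had 127769, 207156, 217039 and 287345 CPM in the uteri of rats 7, 9, 10 and 11, and 4262, 4970 and 9635 CPM at the lowest, median and highest stomach. Each uterus was far above each stomach, and the left-out uterus of rat 8 had 5888 CPM. The log2 change was 4.66 ± 0.24 (SE, adjusted p = 5.63e-10), a 25.3-fold difference, and it stayed between 3.81 and 5.18 under every alternative run. Among 23 tissues the uterus ranked second, after the adrenal gland, and the stomach 18th.

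Its near relative miR-10a-5p went the other way. It had 16447, 24748, 22652 and 23160.0 CPM in the uteri against 25674, 29635 and 39054 in the stomachs, without overlap, and a log2 change of -1.09 ± 0.23 (SE, adjusted p = 0.00118). The direction held in each scaling, from -1.86 to -0.49. Both miR-10a-5p and miR-10b-5p were among the 10 most abundant names of each organ, and they differed in opposite directions. Reads that fit both names, counted under their composite name, had 27.1, 126.5, 25.3 and 88.4 CPM against 4.19, 7.49 and 18.6, and a log2 change of 2.34 ± 0.46 (SE, adjusted p = 0.00079).

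miR-196b-5p was close to absent from the stomach. It had 575.1, 710.4, 632.8 and 864.6 CPM in the uteri, from 14302 counts, and 0, 0.251 and 0.487 CPM at the lowest, median and highest stomach, from 15 counts in 10 libraries. No count was found in 3 stomach libraries, and 3 counts, the limit that a count of 0 allows, correspond to 0.363 to 0.608 CPM there. The log2 change was 11.004 ± 0.44 (SE, adjusted p = 4.07e-11), though a fitted value against so few counts depends on the prior of the fit. miR-196b-5p passed the filter through the uterus alone, so that its call could go in that direction only. The uterus ranked first of 23 tissues for miR-196b-5p and the stomach 23rd, and the ovary had 150.8 CPM. miR-196a-5p and miR-196c-5p have the same seed. miR-196a-5p had 340 counts in the 4 uteri and 2 in the 10 stomachs, and miR-196c-5p had 59 and 0. Set against 3 counts in each stomach library, miR-196c-5p was at least 4.49-fold higher in the uterus. The 3 names together had 715.3 CPM in the uterus and 0.235 CPM in the stomach.

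Of the 9 HOX cluster names tested, 4 reached the filter's level of 1.59 CPM in libraries of both organs. Of these, miR-10b-5p and the composite name were called higher in the uterus and both arms of miR-10a higher in the stomach. The other 5, which are miR-10b-3p, miR-196a-5p, miR-196c-5p and both arms of miR-196b, passed the filter through the uterus alone, so that their calls could go in that direction only, and all 5 were called. The shares called over all names were 26.6% higher in the uterus and 20.5% higher in the stomach. The median fitted log2 change of the 9 was 4.66 against -0.02 over all names, or 2.58 with miR-196b-3p and miR-196c-5p, which had no stomach count, at their lower bounds. With library size scaling 1 arm of miR-10a was called in place of both.

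The miR-199 and miR-214 genes, transcribed together on the opposite strand of Dnm3 and known from fibroblasts and other mesenchymal cells, were higher in the uterus in all 3 names tested, with a median log2 change of 2.97. Over all names, 26.6% were called higher in the uterus. miR-199a-3p had 5886, 6677, 6135 and 5248 CPM in the uteri against 319.5, 573.2 and 1014 in the stomachs, a log2 change of 2.80 ± 0.16 (SE, adjusted p = 1.93e-09). miR-214-3p had 363.4, 321.9, 373.7 and 348.5 CPM against 16.3, 24.9 and 40.02, a log2 change of 3.24 ± 0.17 (SE, adjusted p = 5.63e-10). The uteri were close to each other and far above each stomach, while 30.6% of all names were higher in the uterus without overlap by CPM. miR-199a-5p showed the same order, with 746.7 to 907.8 CPM against 41.0 to 98.2 and a log2 change of 2.97 ± 0.18 (SE, adjusted p = 2.78e-09). For each of the 3 the uterus ranked first of 23 tissues, and the left-out uterus of rat 8 lay at 1106, 126.0 and 45.5 CPM for miR-199a-3p, miR-199a-5p and miR-214-3p, below the other uteri.

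miR-21-5p, which is known to rise in proliferating and inflamed tissue, had 17769.9, 15048, 16555 and 16155 CPM in the uteri against 2056, 2549 and 4545 CPM in the stomachs. Its log2 change was 2.03 ± 0.15 (SE, adjusted p = 3.45e-08). The passenger arm miR-21-3p was higher as well, with a log2 change of 1.67 ± 0.16 (SE, adjusted p = 4.77e-07). miR-34c-5p, a miRNA best known from testis and ciliated epithelium, had 120.3, 107.7, 118.0 and 100.1 CPM against 4.94, 6.31 and 26.8, and a log2 change of 2.92 ± 0.47 (SE, adjusted p = 0.000139). miR-34b-5p and miR-34c-3p were also higher in the uterus (log2 changes of 2.71 and 2.67), so that 3 of 4 names of the miR-34 and miR-449 list were called (median 2.69, beside 26.6% of all names). Of these, miR-34b-5p and miR-34c-3p passed the filter through the uterus alone, and their direction was fixed by it. miR-34a-5p, from another gene, had a log2 change of 0.01 ± 0.30 (SE, adjusted p = 0.973).

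All 8 names of the miR-181 family tested were higher in the uterus, with a median log2 change of 1.76, under each of the 5 other scalings run. In the main fit 26.6% of all names were higher there. miR-181a-5p, the most abundant, had 9424, 10547, 9184 and 7829 CPM against 1676, 2388 and 4163, a log2 change of 1.27 ± 0.12 (SE, adjusted p = 4.77e-07). miR-181c-5p had 1142 to 1481 CPM against 184.2 to 455.5, a log2 change of 1.84 ± 0.15 (SE, adjusted p = 9.40e-08), and its other arm, miR-181c-3p, had 74.2, 86.1, 104.0 and 86.5 CPM against 11.2, 14.6 and 23.8, a log2 change of 1.89 ± 0.20 (SE, adjusted p = 1.94e-06). The 4 family members that share a seed summed to 11273 CPM in the uterus and 3043 CPM in the stomach. miR-340-5p, which has no list here, had 157.9, 140.7, 127.7 and 93.6 CPM against 12.5, 18.9 and 30.5, a log2 change of 2.10 ± 0.18 (SE, adjusted p = 1.84e-07).

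Several families of cell growth and of the X chromosome were also higher in the uterus, with an extent that depended on the scaling. Beside them, 26.6% of all names were higher in the uterus and 20.5% in the stomach. In the list of the miR-17-92 and miR-106b-25 clusters 11 of 13 names were higher in the uterus and 0 in the stomach, with a median of 1.10, whereas with miR-143-3p left out of the library size 3 were higher in the uterus and 1 in the stomach. The X-linked miR-322 cluster had 5 of 7 names higher in the uterus and 0 in the stomach, with a median of 0.77 and led by miR-322-5p at 118.8 to 150.7 CPM against 17.4 to 44.9 (log2 change 1.73 ± 0.19, SE, adjusted p = 2.21e-06). With miR-143-3p left out of the library size 3 of the 7 were called and the median was 0.03. In the list of miR-15, miR-16, miR-195 and miR-497, which restrain the cell cycle, 4 of 7 were higher in the uterus and 0 in the stomach, with a median of 0.77. miR-195-5p (1.76) and miR-497-5p (1.82), made from a single transcript, had the largest log2 changes of these, and miR-16-5p was at 0.09 ± 0.15 (SE, adjusted p = 0.635). The counts of this list became 2 and 1 with miR-143-3p left out of the library size.

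Other families were close to the background, in which 26.6% of all names were higher in the uterus, or had few members. The miR-148 and miR-152 list had 3 of 4 names higher in the uterus (median 0.64), but 1 with miR-143-3p left out of the library size. The miR-29 list had 2 of 5 (median 0.44), and 1 with the rat as a block. The list of miR-99, miR-100 and miR-125 had 3 of 11 (median 0.40), 6 without the uterus of rat 7, 5 without the stomach of rat 5 and 11 with library size scaling. None of these lists had a name higher in the stomach with upper quartile scaling. With miR-143-3p left out of the library size, 2 names of the miR-29 list and 5 of the miR-99, miR-100 and miR-125 list were higher in the stomach and 0 of either in the uterus. In the let-7 list 6 of 24 were higher in the uterus and 1 in the stomach (median 0.26), 14 and 0 with library size scaling, 1 and 0 with the rat as a block, 4 and 1 when the uterus of rat 10 was represented by its other run alone, and 2 and 13 with miR-143-3p left out of the library size. In the miR-30 list 1 of 13 was higher in the uterus and 2 in the stomach (median -0.11), but 4 and 0 with library size scaling, 0 and 9 with miR-143-3p left out of it and 3 and 1 without the uterus of rat 7. No name of the miR-221 and miR-222 list passed the test (3 tested, median -0.01), while 2 were higher in the uterus with library size scaling and 2 were higher in the stomach with miR-143-3p left out of it.

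**Figure D4:**
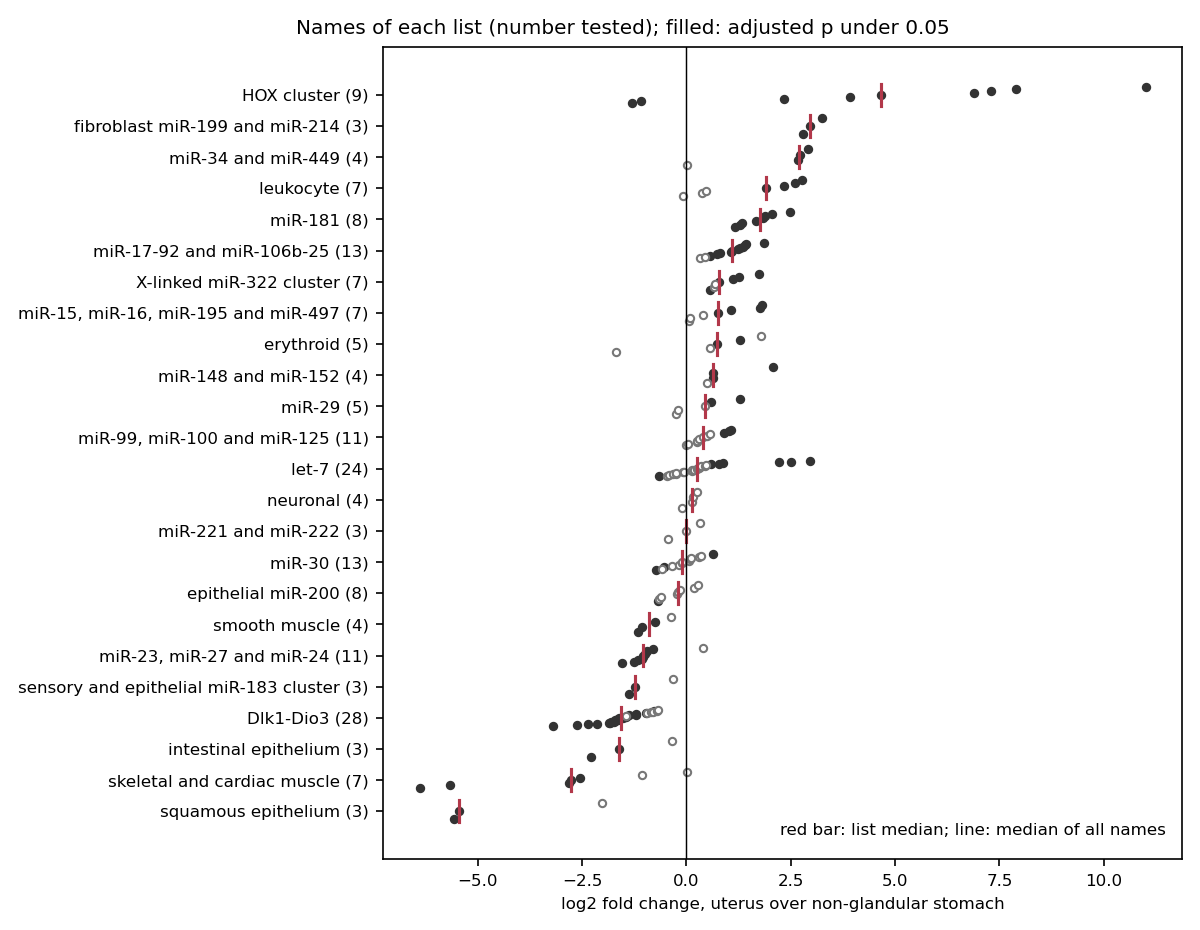
Log2 fold change (uterus minus non-glandular stomach, upper quartile scaling, horizontal) of every tested member of the miRNA lists with 3 or more tested names, filled where the adjusted p is under 0.05, with a bar at the median of each list and a line at the median of all 458 names, -0.02. The HOX cluster list runs from the miR-10a arms below 0 to miR-196b-5p at 11.004, and the Dlk1-Dio3 list lies below 0 in its 28 names.

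The squamous epithelium list was higher in the stomach in 2 of 3 names tested, beside 20.5% of all names, with a median log2 change of -5.45, and in none in the uterus. miR-205 had 28.9, 33.4, 28.8 and 44.0 CPM in the uteri and 578.7, 1064 and 1383 CPM at the lowest, median and highest stomach, a log2 change of -5.57 ± 0.32 (SE, adjusted p = 1.93e-09), or 47.5-fold higher in the stomach. miR-203a-3p, which holds back the proliferation of epidermal cells, had 145.6, 59.2, 17.9 and 23.8 CPM against 1079, 1587 and 1911, a log2 change of -5.45 ± 0.50 (SE, adjusted p = 3.60e-07). No uterus reached the lowest stomach for either, while among themselves the uteri of rats 7 and 9 had more miR-203a-3p than those of rats 10 and 11. The left-out uterus of rat 8 had 1301 CPM of miR-203a-3p, within the range of the stomachs.

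miR-490-3p, inside the gene of the muscarinic receptor that is abundant in visceral muscle, had 17.8, 15.2, 11.9 and 8.73 CPM in the uteri and 100.1, 121.4 and 195.1 in the stomachs. The groups were well apart, and the log2 change was -3.90 ± 0.26 (SE, adjusted p = 9.45e-09). miR-182 and miR-183-5p, from a cluster known in sensory and epithelial cells, were lower in the uterus in 2 of the 3 names tested (median -1.23, beside 20.5% of all names). miR-182 had 648.5, 643.3, 394.5 and 660.3 CPM against 695.5, 973.1 and 1413, just without overlap, and a log2 change of -1.37 ± 0.20 (SE, adjusted p = 4.19e-05).

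The miR-200 family, which marks simple as well as stratified epithelium, did not separate the organs with upper quartile scaling. Of 8 names tested (median -0.21), 1 was called, miR-141-3p, which was higher in the stomach with a log2 change of -0.67 ± 0.25 (SE, adjusted p = 0.0360), and this call was lost on leaving out any 1 of the 4 uteri or the stomach of rat 4 or 7, and with the rat as a block (-0.66, adjusted p = 0.0811). The shares called over all names were 26.6% higher in the uterus and 20.5% higher in the stomach in the main fit. miR-200b-3p had 587.2, 355.8, 160.2 and 205.4 CPM against 122.3, 216.9 and 455.8, with a log2 change of -0.19 ± 0.27 (SE, adjusted p = 0.583). With library size scaling 2 names of the family were higher in the uterus and 0 in the stomach. Over all alternatives, which include the uterus of rat 8 kept, the log2 change of miR-141-3p ranged from -1.32 to 1.32. That of miR-200b-3p ranged from -0.75 to 1.24.

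The miRNAs of the imprinted Dlk1-Dio3 region, a large cluster known from embryonic and neural tissue, were higher in the stomach in 22 of 28 names tested and in 0 in the uterus, with a median log2 change of -1.56. The shares over all names were 20.5% and 26.6%. Of the 28, 3 passed the filter through the stomach alone, and 2 of these are among the 22. The 27 that have a place in RefSeq spanned chr6:134321170-134579828. For none of these were the groups apart by CPM, and the uteri themselves split. miR-127-3p had 1314, 951.3, 195.3 and 233.6 CPM in the uteri of rats 7, 9, 10 and 11 and 564.7, 1264 and 1785 in the stomachs, with a log2 change of -1.64 ± 0.44 (SE, adjusted p = 0.00667). miR-434-3p (132.2, 119.0, 36.4 and 27.1 CPM) and miR-411-5p (123.7, 238.1, 47.8 and 66.9 CPM) likewise had more in rats 7 and 9 than in rats 10 and 11. The count of this list was 6 of 28 with library size scaling, 27 of 28 with miR-143-3p left out of the library size, 10 of 22 with female libraries only, 8 of 18 with the rat as a block, 13 of 28 without the uterus of rat 10 and 14 of 28 without that of rat 11, all higher in the stomach. miR-381-3p, which had the most negative log2 change of the list (-3.19 ± 0.88, SE, adjusted p = 0.00785), was not called with the rat as a block (-1.61, adjusted p = 0.101).

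Markers of other cell types moved with the organ in part, and their share in the results above was not tested. The skeletal and cardiac muscle list was higher in the stomach in 5 of 7 names (median -2.78, beside 20.5% of all names), and its summed level was 279.8 to 701.4 CPM in the uteri and 568.4 to 6745 CPM in the stomachs. miR-133a-3p had 680.2, 509.0, 522.0 and 267.6 CPM against 547.2, 1390 and 6515, a log2 change of -2.54 ± 0.60 (SE, adjusted p = 0.00273), and miR-206-3p had 3 counts in 4 uteri and 743 counts in 10 stomachs. miR-206-3p, miR-1-3p and miR-133a-5p passed the filter through the stomach alone, so that 3 of the 5 calls could go in that direction only. Without the stomachs of rats 8 and 10 the count was 3 of 4. Stomachs therefore differed among themselves by more than 10 times in striated muscle miRNAs, and those of rats 8 and 10 also stood apart in their scaling factors (1.49 and 1.42, against 0.621 to 0.962 in the other 8). Without both, 122 names were higher in the uterus and 87 in the stomach.

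The leukocyte list was higher in the uterus in 4 of 7 names (median 1.91, beside 26.6% of all names), of which miR-223-5p passed the filter through the uterus alone, and in 4 against 1 with miR-143-3p left out of the library size, with a summed level of 635.7 to 1107 CPM against 150.7 to 349.4. miR-223-3p, a miRNA of granulocytes and monocytes, had 204.2, 215.0, 46.5 and 77.1 CPM against 5.52, 11.9 and 18.6, and a log2 change of 2.77 ± 0.31 (SE, adjusted p = 3.75e-06), and the uterus ranked first of 23 tissues. miR-142-5p, found in all blood cell lineages, had 504.1, 548.2, 305.9 and 350.0 CPM against 43.0, 74.1 and 114.3, a log2 change of 1.91 ± 0.17 (SE, adjusted p = 3.62e-07). Uteri of rats 7 and 9 were above those of rats 10 and 11 in both. miR-150-5p, of mature lymphocytes, had a log2 change of 0.38 ± 0.17 (SE, adjusted p = 0.0708), which passed the threshold without the uterus of rat 7, 10 or 11 or the stomach of rat 6 (0.47 to 0.53, adjusted p = 0.00904 to 0.0270).

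Both tested arms of the endothelial miR-126a were higher in the uterus, beside 26.6% of all names. miR-126a-5p had a log2 change of 1.12 ± 0.15 (SE, adjusted p = 2.42e-05) and miR-126a-3p one of 1.02 ± 0.17 (SE, adjusted p = 0.000170). With miR-143-3p left out of the library size the call of miR-126a-3p was lost (0.34, adjusted p = 0.0703). Of the erythroid list 2 of 5 were higher in the uterus (median 0.72, beside 26.6% of all names), miR-144-3p and miR-451-5p. Its summed level was 39.2 to 101.3 CPM against 8.79 to 33.0. These sums leave out reads under the composite name of miR-3107-5p and miR-486-5p. That name was among the 50 most abundant of the stomach and not of the uterus. miR-486-5p (1.79, adjusted p = 0.0645) and miR-486-3p (-1.70, adjusted p = 0.131) were not called. The number of erythroid calls was 1 without the uterus of rat 9 or 10 or the stomach of rat 4, and 0 without the stomach of rat 3. The call of miR-451-5p was lost without the uterus of rat 9 or the stomach of rat 3 or 4 (0.66 to 0.70, adjusted p = 0.0502 to 0.0836). With miR-143-3p left out of the library size 0 were higher in the uterus and 1 in the stomach. The intestinal list, whose defining names are miR-192-5p, miR-194-5p and miR-215, was higher in the stomach in 2 of 3 names (median -1.61, beside 20.5% of all names), with sums of 143.8 to 473.5 CPM in the uteri against 220.6 to 1447, and 416250 CPM in the left-out uterus of rat 8. Of the neuronal list 0 of 4 and of the endocrine list 0 of 2 were called in the main fit, and no name of the lists for Igf2 and H19 or for miR-202 had enough counts to be tested.

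Within a miRNA, the sequence that was most counted was the same in both organs for all 45 names with 1000 or more counts in each of the 14 libraries. The share of a name's counts on that sequence differed between the organs in 0 of 45 names (0.00%, exact permutation tests with Benjamini-Hochberg adjustment). The share at another 5′ end, which shifts the seed, differed in 10 of 45 (22.2%), and in all 10 the uterus of rat 10, with the run described above, was the highest library. For miR-22-3p, for example, rat 10 had 54.6% at another 5′ end, while the median uterus had 0.264% and the stomachs 0.204% ± 0.0164 (SD, n = 10).

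Without the uterus of rat 10, 10 of 47 names differed, by small amounts. The widest was miR-101a-3p, a miRNA common to many tissues, for which 46.4% ± 2.42 (SD, n = 3) of counts in the uterus and 37.9% ± 1.93 (SD, n = 10) in the stomach had another 5′ end (adjusted exact permutation p = 0.0235). miR-145-3p had 8.09% ± 0.663 (SD, n = 3) against 11.3% ± 0.603 (SD, n = 10) with the same p. For both names the most counted sequence does not have the RefSeq seed. The RefSeq 5′ end therefore counts as another 5′ end here. For miR-101a-3p the most counted sequence held 22.0% ± 1.15 (SD, n = 3) in the uterus and 24.2% ± 0.983 (SD, n = 10) in the stomach. Without rat 10 the share of the most counted sequence differed in 5 of 47 names, among them miR-145-3p with 55.0% ± 0.762 (SD, n = 3) against 47.9% ± 1.76 (SD, n = 10) (adjusted exact permutation p = 0.0329). limma on the logit of the share, with rat 10 included, called 0 of 45 names for another 5′ end, and it was not run without rat 10.

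**Figure D5:**
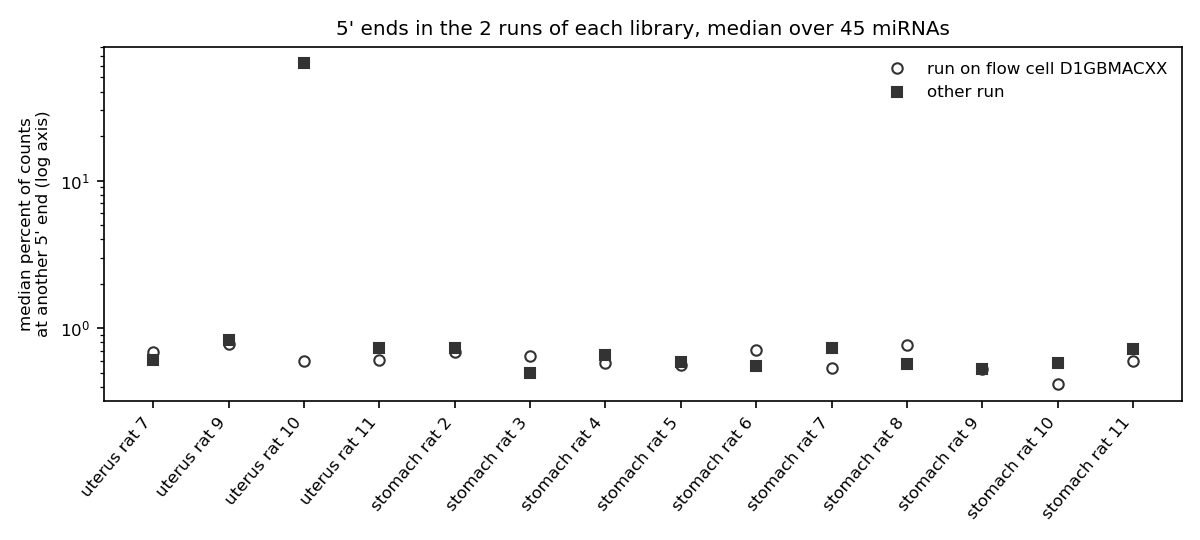
Median share of counts at another 5′ end than the most counted sequence (percent, log scale) over 45 abundant miRNAs, for each of the 28 sequencing runs of the 14 libraries. The larger run of the uterus of rat 10 stands at 62.6%, and the other 27 runs lie between 0.415 and 0.826%.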

How the data were processed

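Total RNA of each tissue was purified with a miRNeasy kit, made into TruSeq small RNA libraries and sequenced in at least 2 runs. Per the methods and labels, the authors trimmed adaptors with cutadapt 1.4.1, removed short reads and aligned the rest to miRBase, and the deposited tables hold raw counts per miRNA name and per isomiR (a sequence variant of a miRNA) in each run, without normalization. Sequences that fit several names carry a composite name. Here the 458 deposited runs were summed to 215 libraries, the 14 runs that repeat a lane were not added, and the 14 libraries compared rest on 28 runs. The 428 isomiR columns of other tissues were not used. Names of predicted miRNAs, which differed widely between the runs of a library, and precursors were tested but not named.

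R 4.3.3 was used, and the counts of 7534 names went through filterByExpr, upper quartile scaling and the quasi-likelihood F test of edgeR 4.0.16, with organ as the factor and Benjamini-Hochberg adjustment over all names tested. The SE is the log2 change divided by the square root of F. Shares of counts and of isomiRs were compared with two-sided exact permutation tests over the 1001 splits of 4 against 10 libraries. DESeq2 1.42.0 and limma 3.58.1 were alternatives. Other computations used Python 3.11.15 with pandas 2.3.3 and numpy 2.4.6. The fit was tested on simulated counts with a common mean profile, apart from names changed at random. The simulation was not built on the different shares of miR-143-3p and miR-10b-5p in these organs, so it cannot decide between scalings. CPM is the count over the library total in the usual scaling, and a correlation is of log2 of CPM plus 1.

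Named miRNAs were up to 12 with the largest change in each direction among those past the threshold, without overlap by CPM and with a mean of 50 CPM or more in the higher organ (12 and 6 met this), the 10 names highest in both organs and those of the next 10 not past the threshold, the given markers miR-143-3p and miR-205, and up to 4 of the most abundant members of each list. A few more list members are named where a sentence turns on them, chosen after their values were seen. The members of the comparison and the lists were chosen with earlier results of these data known. Rats 7, 9, 10 and 11 gave both organs, so the rat number pairs the samples. The deviations of the same rat from the organ means had correlations of -0.24, -0.19, 0.03 and 0.25. The main fit has no block, as in the study's methods.

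Alternatives were DESeq2, other scalings, other filters, female libraries, single flow cells, a flow cell term, the rat as a block, all tissues in 1 fit, the uterus of rat 8 kept and each library left out. The library size without miR-143-3p or without it and miR-10b-5p, the omission of stomach rats 8 and 10, and the uterus of rat 10 with 1 run were chosen after seeing the data. P-values of the main fit and of the exact permutation tests measure the spread between libraries within each organ. They treat the libraries of rats that gave both organs as independent.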

Additional observations from a re-analysis of the deposited data

Results flagged for a closer look

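Of 133 groups of libraries checked for a member that stands apart from its group (Dixon's 95% limit, which chance passes in about 1 in 20 groups), 16 had one. The 16 cannot be set against that chance rate, because they include groups of sequence variants, given below, whose outcome was fixed by their choice. The stomach of rat 8 was apart and highest for miR-21-5p (4545 CPM), miR-22-3p (50414 CPM), miR-27a-3p (1371 CPM) and miR-30d-5p (2491 CPM), and it also had the lowest share of miR-143-3p, 77.0%. The stomach of rat 6 was apart and highest for miR-34c-5p (26.8 CPM) and miR-34b-5p (1.05 CPM), a pair made from the same transcript, and both stayed below the lowest uterus (100.1 and 2.04 CPM). The stomach of rat 5 was apart for the composite name of miR-10a-5p and miR-10b-5p (18.6 CPM), and that of rat 3 was the lowest for miR-205 (578.7 CPM), still above the highest uterus at 44.0 CPM.

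In the uterus, rat 10 was apart for miR-182 (394.5 CPM, lowest), rat 9 for miR-451-5p of red blood cells (45.3 CPM, highest) and rat 11 for miR-497-5p (531.1 CPM, lowest). The uterus of rat 10, whose larger run is described in the report, was apart in the share of counts at another 5′ end for miR-191a-5p (68.5%), miR-145-5p (64.6%), miR-151-3p (61.5%), miR-22-3p (54.6%) and miR-125a-5p (52.8%). These were the called names with the widest differences between the organs in that share. The differences were wide through rat 10, so these flags add nothing to its run. For miR-191a-5p the difference was 16.8 points with rat 10 and 0.619 points without it.

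The library labelled uterus of rat 8, which no comparison used in its main form, held 267430 CPM of miR-215, 133699 CPM of miR-192-5p and 14954 CPM of miR-194-5p, names known from intestinal epithelium. The 4 other uteri had at most 232.1, 228.1 and 24.9 CPM of them.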

How the results depend on the processing

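The number of names called moved by more than 1.5 times under few alternatives. Higher in the uterus were 122 names, against 207 with library size scaling, 68 with miR-143-3p left out of the library size and 55 with the runs of flow cell D1GBMACXX alone (243 tested). Higher in the stomach were 94, against 41, 217 and, with the replicate block for the rat, 61 of 399. Leaving out 1 library gave 121 to 145 and 64 to 112, and 152 to 184 names with a fold of 2 or more. Between the sexes of the stomach 7 names were called by DESeq2 and 40 of 2714 without the filter, against 0. Within rats the share of counts differed by -24.9 points for miR-143-3p and -0.107 points for miR-205 (exact sign-flip p = 0.125 for each). That test cannot give a smaller p, so the loss of these 2 calls was certain. Beside the calls named in the report, the block changed that of miR-25-3p (0.49, adjusted p = 0.0885), but of no other of the 63 named miRNAs it could fit. Omitting a uterus gave differences in share of -27.6 to -22.5 points for miR-143-3p and -0.104 to -0.104 points for miR-205.

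For isomiRs, the share of counts on the most counted sequence differed between the organs in 8 of 85 names with a minimum of 200 counts, 8 of 25 with 1 run of rat 10 and 5 of 47 without rat 10, against 0 of 45. The share at another 5′ end differed in 18 of 85 names with a minimum of 200 counts, 5 of 18 with a minimum of 5000, and 0 of 45 with limma, with limma and the block and with limma on female libraries, against 10.

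Of 1206 values of 64 named miRNAs under alternatives, 1095 kept their call, 64 lost and 32 gained one, and 15 changed sign with a call in one of the fits. Among the 1095 were 44 that changed sign with no call in either fit. With miR-143-3p left out of the library size, let-7f-5p (-0.46), miR-99b-5p (-0.49), miR-125a-5p (-0.73), miR-16-5p (-0.62), miR-30d-5p (-0.69), miR-191a-5p (-0.61), miR-25-3p (-0.19) and miR-451-5p (-0.0050) changed sign. With library size scaling miR-125b-5p (0.57), miR-26a-5p (0.40) and miR-30a-5p (0.040) did, with both top miRNAs left out miR-125b-5p (0.21), and with the uterus of rat 8 kept miR-141-3p (1.32), miR-192-5p (4.35) and miR-194-5p (5.27). These shifts follow from the scaling or from the added library, since nothing else was changed. The fit of all tissues and the fit without the filter each lost 19 calls of named miRNAs, and the cause was not tested.

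With 4 uteri the smallest exact p within rats is 0.125, names near 3 counts cannot be ranked, and reads carry no molecular identifiers. Sex, batch and organ cannot be told apart beyond the female libraries.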

Other observations

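Over 220 names, the correlation between the runs of a library was 0.948 to 0.992 in the uterus and 0.851 to 0.986 in the stomach, with 5 of the 10 stomachs below 0.9. Single miRNAs of other tissues differed widely between runs. miR-215, of intestinal epithelium, had 2.31 CPM in the smaller and 249.6 CPM in the larger run of the uterus of rat 9, and 5.05 and 298.9 CPM in those of the stomach of rat 2. miR-9a-5p, a neural miRNA, had 12.7 and 121.3 CPM in the runs of the uterus of rat 7, and 99.5 and 21.7 CPM in those of the stomach of rat 10. These libraries are therefore high for miR-215 or miR-9a-5p in 1 run alone.

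The uteri of rats 7 and 9 lay above those of rats 10 and 11 for miRNAs of several lists, namely miR-127-3p, miR-434-3p, miR-411-5p, miR-203a-3p, miR-200b-3p, miR-429 (369.0, 296.1, 132.7 and 141.3 CPM), miR-223-3p and miR-142-5p. Their upper quartile scaling factors were 1.60 and 1.54 against 1.16 and 1.15. In the larger runs, rats 7 and 10 shared a flow cell and rats 9 and 11 another. The cause was not tested. No label divides the uteri into rats 7 and 9 against rats 10 and 11, and 4 libraries allow no test of the split.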
